A study of Saccharomyces cerevisiae with 8 samples.

Results

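The 53 genes described here serve ribosome biogenesis in budding yeast: they encode subunits of RNA polymerase I, small nucleolar ribonucleoprotein (snoRNP) proteins, components of the large complexes that process the precursor of ribosomal RNA, and factors that assemble the 40S and 60S subunits. They were chosen by name from the platform's gene table, out of 5392 genes tested, and each of the 53 is represented by 1 probe set. The arrays were Affymetrix Yeast 2.0 arrays, 1 for each of 8 cultures. Of these, 4 cultures were of the CDC34tm strain (RRC85, MATα, with the CDC34tm allele marked by the nourseothricin resistance gene NatR), and 4 of an isogenic wild type (WT; DBY2059, MATα, leu2-3, 112). Within a strain the cultures are numbered 1 to 4, after the replicate numbers, and the labels give no meaning for tm. The sample labels also list, as experimental variables, a PST1 gene partly disrupted in its 3′ region and the leu2 allele, and effects of these and of CDC34tm cannot be told apart. Each group is 1 strain, so nothing separates the allele from this isolate of it. Both strains grew at 30 °C from stationary phase for 3 to 4 doublings in synthetic medium with 2% dextrose, 0.25% glutamine and 25.2 mg/L leucine. Cdc34 is the ubiquitin-conjugating enzyme of the SCF ubiquitin ligases.

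Ribosome synthesis starts in the nucleolus, where RNA polymerase I transcribes a long precursor that holds the 18S, 5.8S and 25S ribosomal RNAs. The UtpA, UtpB and UtpC complexes and the U3 snoRNP assemble on it into the 90S particle, guide snoRNPs modify it, and after cleavage the 40S and 60S precursors mature separately with the help of helicases, GTPases and scaffold proteins. In yeast the mRNAs of these factors are known to form a regulon that follows growth rate and nutrient signals through TOR and protein kinase A, and that falls quickly in many kinds of stress while heat shock and general stress genes rise.

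Every member was well measured. Signals are MAS5 signals scaled by the authors, and all 53 probe sets lay above background on all 8 arrays, where background is the 95th percentile of the probe sets for fission yeast, an organism not in these samples (12.3 to 14.6). The lowest signal of any member was 1405, of SSF1 on WT culture 1. Arrays of a strain correlated at 0.993 to 0.997 for CDC34tm and at 0.979 to 0.995 for WT over log2 signals of all tested genes, and the strains at 0.954 to 0.975 with each other. The ratio of 3′ to 5′ signal of the actin control was 1.26 to 1.32 on the CDC34tm arrays and 1.25 to 1.38 on the WT arrays. The WT cultures differed among themselves in stress genes: the median over 21 heat shock genes of the log2 signal, taken relative to each gene's mean over the 8 arrays, was 0.60 for WT culture 1 and 0.67 for WT culture 4. It was -0.04 and -0.02 for WT cultures 2 and 3, and -0.37 to -0.19 among the CDC34tm cultures.

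The strains were compared to ask which of these genes differ in the CDC34tm strain. Of the 53 genes, 5 were higher in CDC34tm (NOP15, EBP2, IMP4, LTV1 and ENP2), 0 were lower and 48 were not called, by limma with an adjusted p under 0.05. Over all tested genes, 19.0% were called higher and 19.8% lower, so both shares of the members, 9.43% and 0%, were below those of all genes. The median log2 fold change of the members was 0.07, against 0.00 over all tested genes, and single values ran from -0.14 for PWP2 to 0.34 for IMP4. Against all 4 WT cultures together, the changes were bounded as well as small. The 95% interval of all 53 lay within 1.5-fold in either direction, which held for 72.7% of all tested genes. The interval of 28 (52.8%) lay within 1.25-fold, which held for 33.9% of all tested genes. Some values reached further against part of the WT cultures. LTV1 had 0.52 against WT cultures 1 and 4 only, and PWP2 had -0.35 against WT cultures 2 and 3 only. With each array centred on its median, 13 members (24.5%) were called higher and 0 lower, where 24.6% of all genes were called higher and 16.4% lower, so that the members' higher share only reached that of all genes. Of the calls over all genes, 59.9% were then higher in place of 49.0%. With a correction for gene length, 14 members (26.4%) were higher and 0 lower, where 21.3% and 17.2% of all genes were called.

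**Figure D1:**
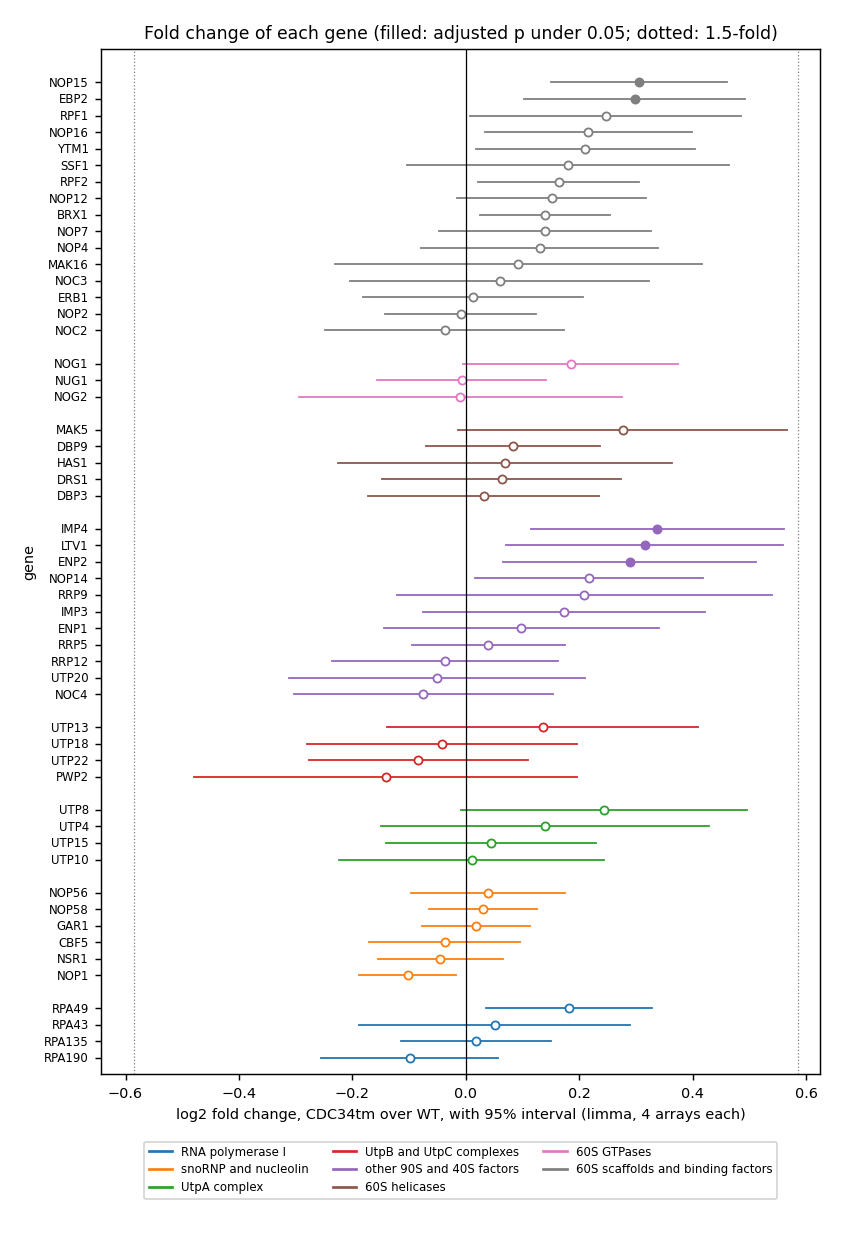
Log2 fold change of each gene, CDC34tm over WT, with its 95% interval from limma (4 arrays per strain), grouped by role. Filled points are the 5 genes past an adjusted p of 0.05, all to the right of 0, and no interval reaches the dotted lines at 1.5-fold.

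The 5 called genes act in the assembly of both subunits. NOP15 (YNL110C) encodes an RNA-binding protein of early 60S particles. It read 6849, 7817, 6755 and 7104 on CDC34tm cultures 1 to 4 and 5266, 6022, 6319.9 and 5488 on WT cultures 1 to 4. Every CDC34tm culture was above every WT culture, and NOP15 rose 1.24-fold, from a WT mean of 5774 ± 483 to a CDC34tm mean of 7131 ± 480.4 (SD over 4 arrays; log2 fold change 0.31, SE 0.0695, limma adjusted p = 0.00737). EBP2 (YKL172W), another 60S assembly factor, read 4666, 5305, 4586 and 4650.2 in CDC34tm and 3356, 4243, 4339 and 3728 in WT, again without overlap, a rise of 1.23-fold (log2 fold change 0.30, SE 0.0871, limma adjusted p = 0.0226).

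On the side of the small subunit, IMP4 (YNL075W), which encodes a protein bound to the U3 snoRNA, read 3779.7, 4082, 3574 and 3619 in CDC34tm and 2444, 3374, 3300.3 and 2862 in WT. The strains did not overlap, and the rise was 1.26-fold (log2 fold change 0.34, SE 0.0999, limma adjusted p = 0.0237). LTV1 (YKL143W), needed for late 40S maturation, read 3487, 3875, 3514 and 3517 in CDC34tm and 2345, 3287, 3356 and 2682 in WT, also without overlap. Its rise of 1.24-fold came with a wider spread in WT (2918 ± 487) than in CDC34tm (3598 ± 185; SD, n = 4 each, limma adjusted p = 0.0442). ENP2 (YGR145W), a 90S component, read 4102, 4736, 4167 and 4416 in CDC34tm and 3077, 3919, 4156 and 3191 in WT. The lowest CDC34tm culture of ENP2 lay just under the highest WT culture, and the log2 fold change was 0.29 (SE 0.1, limma adjusted p = 0.0442). In all 5 genes WT cultures 1 and 4 were the lowest arrays of the 8.

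Of these calls only that of NOP15 was kept whichever single array was left out (limma adjusted p from 0.00455 to 0.0223). EBP2 lost its call without CDC34tm culture 2 (adjusted p = 0.0634) or WT culture 4 (0.0537), and IMP4 without CDC34tm culture 1 (0.057), CDC34tm culture 2 (0.068) or WT culture 4 (0.0537). LTV1 and ENP2 were called without WT culture 2 (adjusted p = 0.0251 and 0.0335) or WT culture 3 (0.0184 and 0.0135), and lost the call without any other single array (0.0633 to 0.114). The count of members called higher was 13 without WT culture 3 and 12 without WT culture 2, which is 24.5% and 22.6% of them, where 19.5% and 19.4% of all genes were called higher. It was 1 without WT culture 4 or CDC34tm culture 2 (15.6% and 15.8% of all genes), 2 without CDC34tm culture 1 (14.3%), and 3 without WT culture 1 or CDC34tm culture 3 or 4 (16.9%, 16.1% and 14.0%). Without CDC34tm culture 3, NOP1 was called lower, as were 17.3% of all genes.

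**Figure D2:**
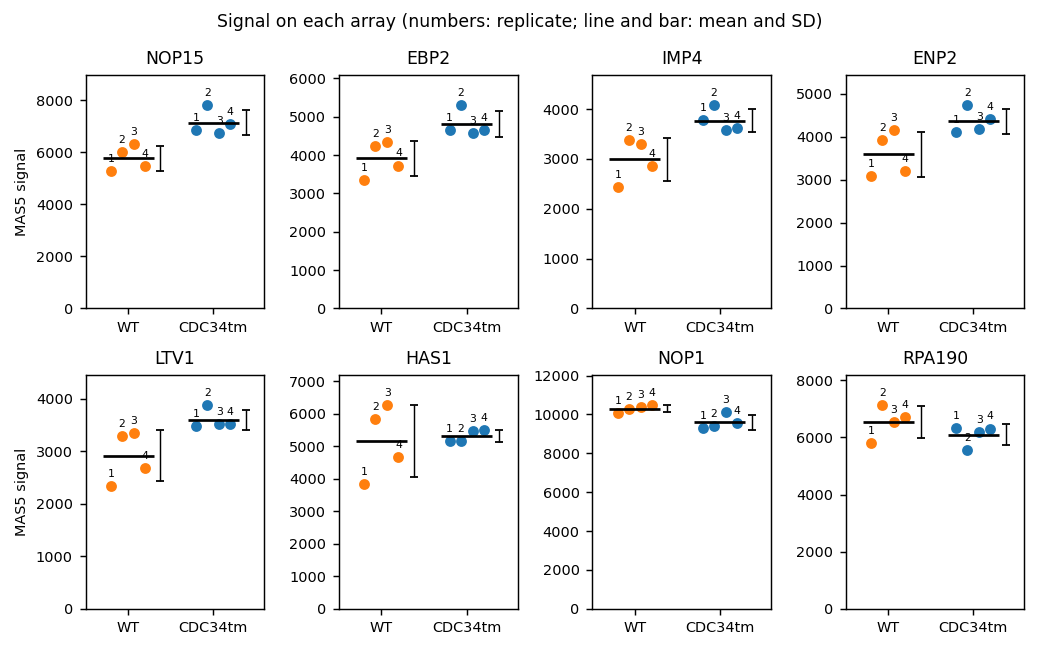
MAS5 signal of 8 genes on each array, with the culture number above each point, the mean as a line and the SD as a bar (n = 4 per strain). For NOP15, EBP2, IMP4 and LTV1 every CDC34tm array is above every WT array, for HAS1 the CDC34tm arrays fall between the low WT cultures 1 and 4 and the high WT cultures 2 and 3, and for NOP1 the highest WT signal is 1.04 times the lowest.

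The members varied more among the WT cultures than among the CDC34tm cultures. The median SD of log2 signal over the members was 0.193 in WT and 0.0702 in CDC34tm, against 0.131 and 0.0884 over all tested genes, and the SD was larger in WT for 48 of 53 members (69.0% of all genes). The WT variation had 1 order: WT cultures 1 and 4 both lay below WT cultures 2 and 3 for 46 of 53 members, an order found in 35.3% of all tested genes. The opposite order, found in 25.5% of all tested genes, occurred in 0 of 53. WT culture 1 was the lowest of the WT arrays for 39 members and WT culture 4 for 13, counts not made over all tested genes. The count of members with WT cultures 1 and 4 below WT cultures 2 and 3 was 48 after quantile normalization (35.1% of all genes). It was 45 with arrays centred on their median (31.7%) and 49 with the length correction (35.3%).

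The CDC34tm arrays lay with the higher WT cultures. The median over members of the log2 signal, relative to each gene's mean over the 8 arrays, was -0.23 on WT culture 1 and -0.16 on WT culture 4. It was 0.10 and 0.07 on WT cultures 2 and 3, and 0.03, 0.10, -0.00 and 0.04 on CDC34tm cultures 1 to 4. For 38 of 53 members all 4 CDC34tm arrays exceeded WT cultures 1 and 4, against 33.0% of all tested genes. Heat shock genes had the reverse order: WT cultures 1 and 4 exceeded WT cultures 2 and 3 for 20 of 21, against 25.5% of all tested genes. The summed signal of the heat shock genes was 141079.6 in WT culture 1 and 144484 in WT culture 4. It was 93808 and 92939 in WT cultures 2 and 3, and 80399 to 81198 in CDC34tm. The summed signal of the 53 members was 223601 in WT culture 1 and 235046 in WT culture 4, with 274162 and 269298 in cultures 2 and 3, and 257759.9 to 273033 in CDC34tm. Of the 21 heat shock genes, 14 (66.7%) were lower and 1 (4.76%) higher in CDC34tm, against 19.8% and 19.0% of all genes. The part of the heat shock genes in the results on the members was not tested. In RNA from whole cultures, fewer cells that express a gene and less of its RNA per cell cannot be told apart.

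**Figure D3:**
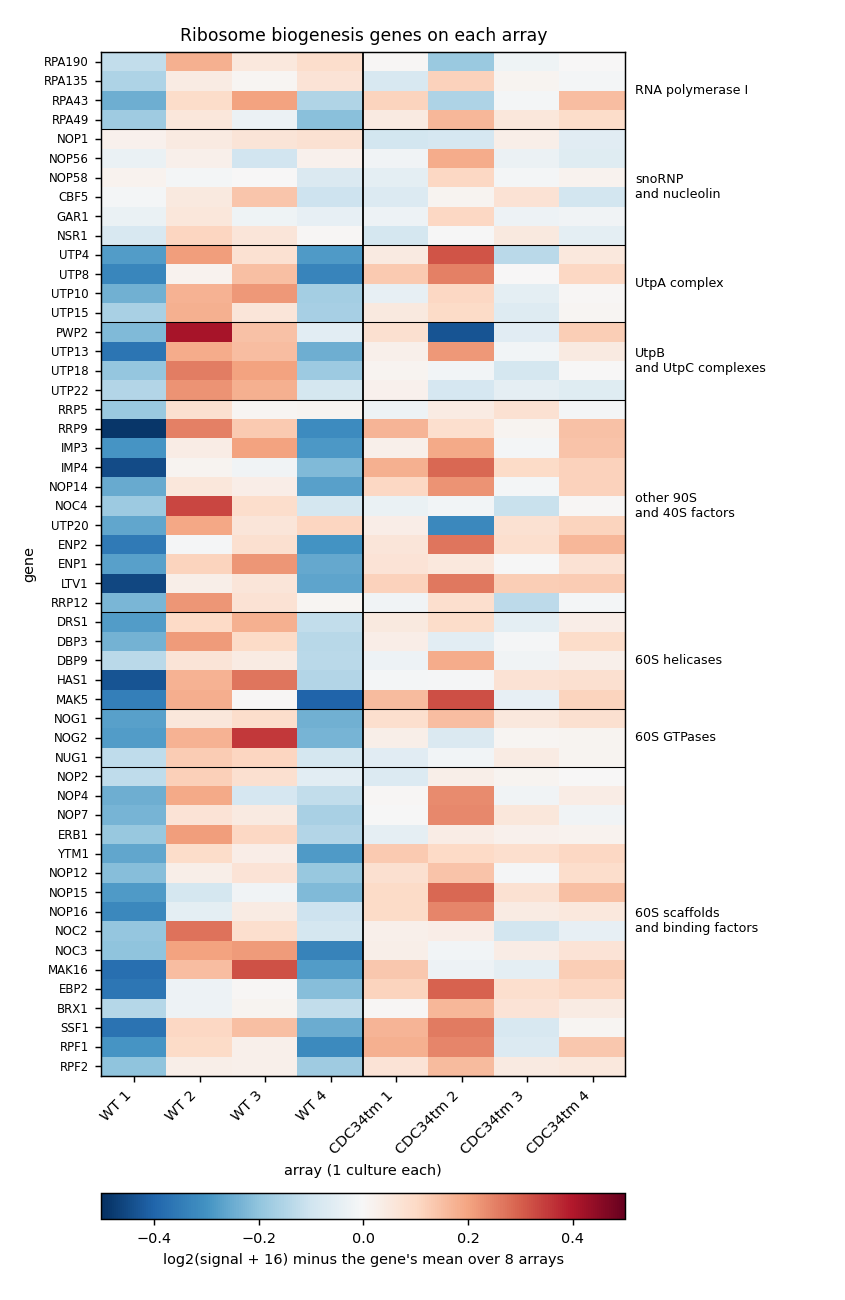
Each of the 53 genes (rows, by role) on each array (columns), as log2(signal + 16) minus the gene's mean over the 8 arrays. WT cultures 1 and 4 are both below WT cultures 2 and 3 in 46 rows, and the snoRNP rows are pale on all arrays.

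Set against single WT cultures, the members departed furthest from all genes on WT cultures 1 and 4. All 4 CDC34tm arrays were above WT culture 1 for 45 members (84.9%) and below it for 0, with a median log2 difference of 0.27. Against WT culture 4 the counts were 40 above (75.5%) and 2 below (3.77%), with a median of 0.19. Against WT culture 2 they were 8 above (15.1%) and 24 below (45.3%), with a median of -0.07. Against WT culture 3 they were 9 above (17.0%) and 22 below (41.5%), with a median of -0.04. The shares below WT cultures 2 and 3 were close to the 39.0% and 39.9% of all genes. The shares above were under the 33.1% and 33.9% of all genes. Over all tested genes the shares above and below ran from 33.1% to 40.9% and from 35.6% to 39.9% against any of the 4 WT arrays.

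**Figure D4:**
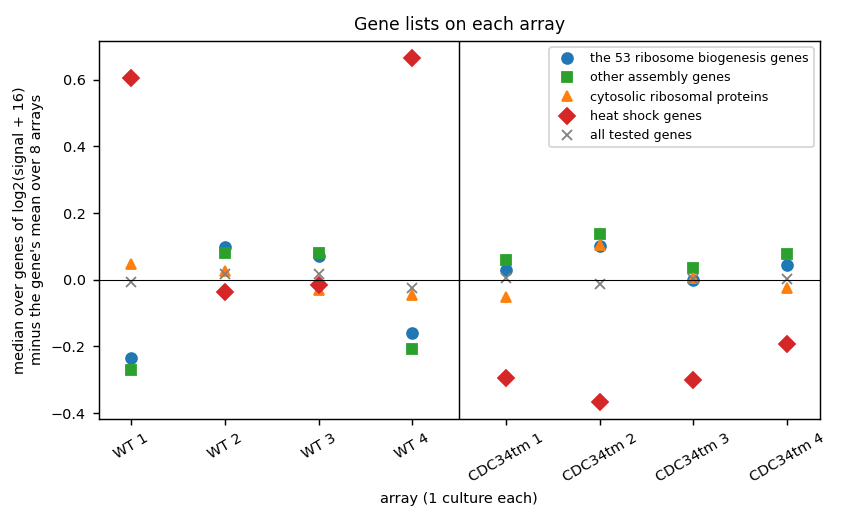
Median over the genes of a list, on each array, of log2(signal + 16) minus the gene's mean over the 8 arrays. The ribosome biogenesis genes and the 102 other assembly genes are low on WT cultures 1 and 4 (-0.16 to -0.27), where the 21 heat shock genes are high (0.60 and 0.67), and the medians of the cytosolic ribosomal protein genes run from -0.05 to 0.10, with the highest on CDC34tm culture 2.

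With only WT cultures 2 and 3 as controls, 1 member was higher in CDC34tm and 7 were lower, where 18.0% and 21.0% of all genes were called, and the median was -0.07. The higher one was NOP15 (log2 fold change 0.21, limma adjusted p = 0.0334). The 7 lower ones were NOG2 (-0.27), UTP18 (-0.25), NOC4 (-0.25), UTP22 (-0.24), UTP10 (-0.19), HAS1 (-0.19) and NOC3 (-0.18), with limma adjusted p from 0.00855 to 0.0391. With only WT cultures 1 and 4, 34 members were higher and 0 lower, where 25.6% and 22.6% of all genes were called, and the median was 0.25. NOG2, UTP18, UTP10, HAS1 and NOC3 were then called higher (0.25, 0.17, 0.21, 0.32 and 0.30), so that their direction turned with the WT cultures used. All but 1 of the members (52 of 53) had the larger log2 fold change against WT cultures 1 and 4. The CDC34tm mean is the same in both comparisons, so this count restates the order of the WT cultures and says nothing about CDC34tm. These subsets of WT arrays were formed with the stress gene values known. The WT order given above fixes which way the values shift between the subsets. The counts and p-values of the subsets therefore describe that order and are not separate tests.

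**Figure D5:**
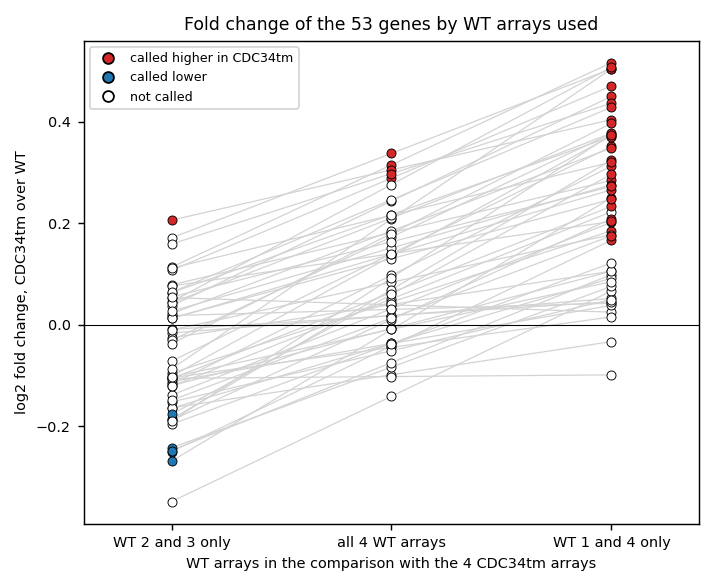
Log2 fold change of each of the 53 genes, CDC34tm over WT, with WT cultures 2 and 3 only, all 4 WT arrays, or WT cultures 1 and 4 only. Lines join the same gene; red points were called higher (1, 5 and 34 genes) and blue points lower (7, 0 and 0 genes).

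RNA polymerase I makes the ribosomal RNA precursor, and none of its 4 subunits listed here passed the test. RPA190 (YOR341W), the largest subunit, read 6335, 5547, 6204 and 6314 in CDC34tm and 5794, 7125, 6541 and 6708 in WT. RPA135 (YPR010C), the second-largest, read 8539, 9779, 9115 and 8969 in CDC34tm and 8124, 9304, 9085 and 9466 in WT. In both genes the strains overlapped and WT culture 1 was the lowest WT culture, while WT culture 4 was not low. RPA43 (YOR340C), a stalk subunit that binds the initiation factor Rrn3, read 3192, 2652, 2938 and 3286 in CDC34tm and 2491, 3149, 3401 and 2661 in WT, with CDC34tm culture 2 close to the low WT cultures. RPA49 (YNL248C), which aids elongation, read 5198, 5652, 5235 and 5372 in CDC34tm and 4447, 5232, 4927 and 4352 in WT. RPA49 came closest to the threshold (log2 fold change 0.18 with a 95% interval of 0.04 to 0.33, limma adjusted p = 0.0514), with 3 of the 4 CDC34tm arrays above every WT array. RPA49 was called higher with centred arrays (adjusted p = 0.0233) or the length correction (0.0205), and without WT culture 2 (0.0164). For RPA190, RPA135 and RPA43 the log2 fold changes were -0.10, 0.02 and 0.05, with 95% intervals of -0.26 to 0.06, -0.11 to 0.15 and -0.19 to 0.29. RPA43 and RPA190 are neighbours in the RefSeq gene order.

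The 6 snoRNP and nucleolin genes, none of them called, had the narrowest WT ranges of the roles. NOP1 (YDL014W), the fibrillarin methyltransferase of box C/D snoRNPs, read 9312, 9384, 10138 and 9539.5 in CDC34tm and 10078, 10261, 10376 and 10466 in WT. Among the WT cultures its highest signal was 1.04 times its lowest, with WT culture 4 the brightest, and its log2 fold change of -0.10 was just short of the threshold (95% interval -0.19 to -0.02, limma adjusted p = 0.0586). NSR1 (YGR159C), the yeast nucleolin, read 9196, 9751, 10118 and 9456 in CDC34tm and 9249, 10520.1, 10184 and 9804 in WT (log2 fold change -0.04, 95% interval -0.15 to 0.07). The box C/D core genes NOP56 and NOP58 and the box H/ACA genes CBF5, the pseudouridine synthase, and GAR1 had log2 fold changes of 0.04, 0.03, -0.04 and 0.02 and adjusted p from 0.607 to 0.768. Within this role the ratio of the highest to the lowest WT signal was 1.04 to 1.18 (median 1.08), against a median of 1.33 over all members and 1.23 over all tested genes. Their signals lay between 6131 and 11086, where the highest signal of any gene on an array was 16984 to 20441. Across the 53 members that WT ratio was smaller for genes with a higher mean log2 signal (Spearman -0.739; -0.419 across all tested genes, which share the same arrays and are not independent), and whether brightness narrows the range was not tested.

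The UtpA complex binds the 5′ end of the precursor first, and its 4 genes were not called. UTP8 (YGR128C) read 3113, 3382, 2839.6 and 3054 in CDC34tm and 2259.9, 2878, 3152 and 2256 in WT (log2 fold change 0.24 with a 95% interval of -0.01 to 0.50, limma adjusted p = 0.113). UTP4 (YDR324C) read 3205, 3875, 2832 and 3229 in CDC34tm and 2557, 3595, 3277 and 2554 in WT (log2 fold change 0.14, 95% interval -0.15 to 0.43). In both, WT cultures 1 and 4 were the lowest of the 8 arrays and almost equal to each other, while WT cultures 2 and 3 lay among the CDC34tm cultures. UTP15 (0.04) and UTP10 (0.01) had the same order of WT arrays. In the UtpB and UtpC complexes, 4 genes were measured and 0 called. UTP13 (YLR222C), of UtpB, read 4199, 4806, 4088 and 4261 in CDC34tm and 3203, 4695, 4599.8 and 3486 in WT (log2 fold change 0.14, 95% interval -0.14 to 0.41), and UTP22 (YGR090W), of UtpC, read 3352, 3110.1, 3196 and 3164 in CDC34tm and 2976, 3861, 3729 and 3105 in WT (log2 fold change -0.08, 95% interval -0.28 to 0.11). The CDC34tm arrays of UTP22 lay in the gap between the low and the high WT cultures. The UtpB genes UTP18 and PWP2 had log2 fold changes of -0.04 and -0.14. PWP2 had the widest interval of the members (-0.48 to 0.20), with 2446 on CDC34tm culture 2 against 3175 to 3601 on the other CDC34tm arrays and 2833 to 4399 in WT.

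Among the 11 other genes of the 90S and 40S precursors, the 3 called genes IMP4, LTV1 and ENP2 are described above and 8 were not called. NOP14, an 18S assembly factor, came next (log2 fold change 0.22, limma adjusted p = 0.0815), followed by IMP3 (0.17), a partner of IMP4 in the U3 particle, and RRP9 (0.21), a protein specific to the U3 snoRNP. RRP9 had the widest WT range of all members, from 1661 and 1877 on WT cultures 1 and 4 to 2559 and 2785 on WT cultures 3 and 2, a ratio of 1.68. Its CDC34tm arrays read 2632, 2477, 2360.0 and 2588. ENP1 (0.10), RRP5 (0.04), which acts in both subunit pathways, RRP12 (-0.04), an export factor, UTP20 (-0.05) and NOC4 (-0.07) lay near 0. UTP20 and RRP5 were low on WT culture 1 alone among the WT arrays (3599.8 against 4499 to 4929.6, and 5374 against 6151 to 6466).

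On the 60S pathway, the 5 genes for DEAD-box RNA helicases and the 3 for GTPases were not called. MAK5 (YBR142W) had the largest log2 fold change of the helicases (0.28, 95% interval -0.01 to 0.57, limma adjusted p = 0.118), with 4570.2, 5122, 3976 and 4425 in CDC34tm and 3229, 4644, 4105 and 3099 in WT. DBP9 (YLR276C) read 5422, 6289.6, 5452 and 5614 in CDC34tm and 5026, 5773, 5678 and 5022 in WT (log2 fold change 0.08, 95% interval -0.07 to 0.24). HAS1, which acts in both subunit pathways, had the widest WT range of the helicases, with 3840.4, 5846, 6254 and 4678 in WT around 5156, 5159, 5456 and 5485 in CDC34tm (log2 fold change 0.07). DRS1 (0.06) and DBP3 (0.03) had the same order of WT arrays. Of the GTPases, NOG1 (YPL093W) read 5392, 5670.1, 5276 and 5383 in CDC34tm and 4211, 5291, 5404 and 4310.1 in WT (log2 fold change 0.18 with a 95% interval of -0.00 to 0.37, limma adjusted p = 0.111), and NUG1 (YER006W) read 4489.6, 4629, 4809 and 4717 in CDC34tm and 4273, 5100.0, 5033 and 4389 in WT (-0.01, 95% interval -0.16 to 0.14). NOG2, which joins the particle before export, read 4370.1, 5989, 6789 and 4520.0 in WT and 5047 to 5411 in CDC34tm, so that its mean hardly differed (-0.01) while every CDC34tm array lay above WT cultures 1 and 4 and below WT cultures 2 and 3.

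The 16 genes for 60S scaffolds and binding factors held 2 called genes, NOP15 and EBP2, and all 16 had WT cultures 1 and 4 below WT cultures 2 and 3. BRX1 (YOL077C), whose protein binds early 60S precursors, read 8194, 9139, 8549 and 8381 in CDC34tm and 7384, 8012, 8224 and 7478 in WT. Only the lowest CDC34tm array of BRX1 lay below the highest WT array, and BRX1 stayed just short of the threshold (log2 fold change 0.14 with a 95% interval of 0.03 to 0.25, limma adjusted p = 0.0542). BRX1 was called higher after quantile normalization (adjusted p = 0.0239), with centred arrays (0.0295) or the length correction (0.0495), and without WT culture 3 (0.0346). RPF2, which helps to load the 5S particle, was the other member without overlap between the strains, with 7618 to 8261 in CDC34tm and 6420.3 to 7537 in WT, and was not called either (log2 fold change 0.16, adjusted p = 0.0652). In all, the strains did not overlap for 5 of 53 members, against 39.7% of all tested genes. NOP16 (0.22), YTM1 (0.21) and RPF1 (0.25) had adjusted p from 0.0609 to 0.0947, and their intervals excluded 0 before adjustment.

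The proteins of NOP7, ERB1 and YTM1 form a complex, and their log2 fold changes were 0.14, 0.01 and 0.21. YTM1 was nearly constant in CDC34tm (4627 ± 63.5) and spread in WT (4025 ± 545; SD, n = 4 each). NOC2 and NOC3, whose proteins bind each other, had values of -0.04 and 0.06, and NOP2, an rRNA methyltransferase, of -0.01. NOP12, NOP4 and MAK16 had values of 0.15, 0.13 and 0.09. SSF1 had 0.18 (95% interval -0.10 to 0.46), and its signal is uncertain because SSF2 is a near-identical copy that its probes could also detect.

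Further assembly genes outside the 53 were counted for context. Of 102 such genes, 18 (17.6%) were higher and 1 (0.98%) lower. The higher share was close to the 19.0% of all genes, and the lower share was below their 19.8%. The median log2 fold change of the 102 was 0.17, and 94 had WT cultures 1 and 4 below WT cultures 2 and 3 (35.3% of all genes). Among the 52 for the 90S and 40S particles, 9 were higher and 0 lower, with UTP11 (0.52, limma adjusted p = 0.00501) and DIM1 (0.49, 0.00537), an rRNA dimethylase, first by adjusted p. Among the 50 for the 60S particle, 9 were higher and 1 lower. REA1, a very large ATPase that remodels 60S particles, was the lower one (-0.30, 0.00221), and ALB1 the first of the higher ones (0.42, 0.00558). These counts too moved with the WT cultures used. With only WT cultures 2 and 3, 6 of the 90S and 40S genes were higher and 8 lower, and 2 of the 60S genes were higher and 4 lower. Of all genes, 18.0% were then called higher and 21.0% lower. With only WT cultures 1 and 4, 39 and 36 were higher, and 0 and 1 lower, where 25.6% of all genes were called higher and 22.6% lower. Without WT culture 2 or 3 alone, 16 and 18 of the 90S and 40S genes were higher (19.4% and 19.5% of all genes). Without WT culture 1 or 4 or CDC34tm culture 2 alone, 5 of the 60S genes were higher (16.9%, 15.6% and 15.8% of all genes).

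The other genes of RNA polymerase I split, with 2 of 13 higher (15.4%) and 1 lower (7.69%), against 19.0% and 19.8% of all genes. RPA14 fell (-0.48, from a WT mean of 4572 ± 186 to a CDC34tm mean of 3275 ± 111, SD over 4 arrays; limma adjusted p = 1.31e-04), whereas RPA12 (0.43, 0.003) and RPC19 (0.48, 0.00678), the latter shared with RNA polymerase III, rose, and the other 10 of 13 were not called. Against WT cultures 1 and 4 only, 6 of the 13 were higher and 1 lower (25.6% and 22.6% of all genes). Against WT cultures 2 and 3 only, 2 were higher and 3 lower (18.0% and 21.0% of all genes). RNA polymerase III and its factors make 5S rRNA and tRNAs. Of 18 of their genes, 6 (33.3%) rose and 0 fell, against 19.0% and 19.8% of all genes. Among the 6 were TFC8 (0.56, limma adjusted p = 3.34e-04) and RPC17 (0.75, 3.38e-04). Against WT cultures 2 and 3 only, 6 of the 18 were higher and 3 lower, and against WT cultures 1 and 4 only, 8 and 0. Of all genes, 18.0% were higher and 21.0% lower under the first of these controls, and 25.6% and 22.6% under the second. Of 127 cytosolic ribosomal protein genes measured, 4 (3.15%) rose and 0 fell, below the 19.0% and 19.8% of all genes. RPS9A came first (0.27, limma adjusted p = 0.0062). The median of the 127 was 0.01, and 14 (11.0%) had the WT order of the biogenesis genes, against 35.3% of all genes. With the length correction 3 of the 127 were higher and 6 lower (21.3% and 17.2% of all genes). With quantile normalization the counts were 6 and 1 (21.9% and 18.1% of all genes).

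Among 14 regulators of ribosome genes, 4 (28.6%) were lower and 1 (7.14%) higher, against 19.8% and 19.0% of all genes. SCH9, the kinase through which TOR promotes ribosome synthesis, read 1671, 1215, 1739 and 1557 in CDC34tm and 2249, 2316, 2389.7 and 2402 in WT, where the 4 cultures were close together. It fell 1.52-fold (log2 fold change -0.61, SE 0.104, limma adjusted p = 0.00181). SFP1, an activator of the regulon, read 1496, 1310.2, 1323 and 1351 in CDC34tm and 1703, 2033, 2012 and 1627 in WT and fell 1.34-fold (limma adjusted p = 0.00518), while WT cultures 1 and 4 were again the lower WT cultures. STB3, which binds an element in promoters of the regulon (-0.41, 0.00314), and TOR2 (-0.26, 0.0173) were lower too, and CRF1, a corepressor of ribosomal protein genes, was higher at a low signal (0.49, 0.00413). DOT6 and TOD6, repressors of the regulon, were not called (-0.21 and 0.07). Also not called were FHL1 (0.27), RAP1 (0.18), MAF1 (-0.02), IFH1 (-0.02), RIM15 (-0.14), HMO1 (-0.14) and TOR1 (-0.15). When WT cultures 1 and 4 were the only controls, 5 regulators were higher and 5 lower (25.6% and 22.6% of all genes). When WT cultures 2 and 3 were, 1 was higher and 6 lower (18.0% and 21.0% of all genes). RPC19 and all regulators but SCH9 and STB3 were named after their values were seen.

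In the RefSeq gene order (R64), 8 of 53 members (15.1%) lay next to another gene of the RNA polymerase I and assembly lists, against 5.82% of all tested genes. The neighbours RRP3 and SSF1 had log2 fold changes of 0.25 and 0.18, RSA3 and UTP13 of 0.26 and 0.14, RPF1 and GAR1 of 0.25 and 0.02, NOG2 and ESF2 of -0.01 and 0.19, and RRP15 and NOC4 of 0.16 and -0.07. RRP3 and RSA3 were called higher, and the other genes of these pairs were not called. Control probe sets for ribosomal RNA did not separate the strains in this oligo-dT primed labelling: the 5.8S probe set read 1329.9, 1360.0, 545 and 805 in CDC34tm and 1208, 1315, 846 and 916 in WT (exact permutation test on log2 signals, two-sided, p = 0.657). Cultures 1 and 2 of both strains were the brighter ones on all 3 rRNA probe sets. The permutation test relabels all 8 arrays freely, so it takes no account of that pattern by culture number. With 4 arrays per strain it cannot show that the strains are equal. The exact p was 0.657 for 18S and 0.286 for 25S, over 3 probe sets tested, where the smallest p that 4 against 4 arrays allow is 0.0286.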

How the data were processed

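The authors deposited 1 linear intensity per probe set and array, a MAS5 signal per the submitters' processing notes, which name no version. The 2% trimmed mean of the signals lay between 1000.4 and 1000.5 on all 8 arrays. No further scaling was applied, and a shift in the total mRNA of a cell cannot be detected on this scale. Genes were named through the gene ID in the platform table and the RefSeq gene table (R64): 5498 of 10928 probe sets named 1 S. cerevisiae gene. Gene lengths come from that table and were multiples of 3 for 96.3% of protein-coding genes. Tested probe sets lay above background on at least 4 of 8 arrays; background was the 95th percentile of 1746 S. pombe probe sets on the same array. This kept 5437 probe sets for 5392 genes. The brightest probe set stood for a gene.

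The strains were compared with limma 3.58.1 (R 4.3.3; lmFit, eBayes with a trend) on log2(signal + 16), in a two-sided test. P-values were adjusted by Benjamini-Hochberg over the 5437 probe sets, with a threshold of 0.05. Fold changes are on the log2(signal + 16) scale. The steps were tested on simulated data with independent noise for each gene and array. Those data hold no shift shared by WT cultures 1 and 4, so they cannot show how the calls behave under such a shift. The labels state separate cultures, so p-values measure the spread between cultures, and 4 arrays per strain limit the precision. Members, roles and lists were chosen with earlier results of these data known, and no test over a list was made. Signals on every array are given for the 2 members of each role with the smallest adjusted p (3 in roles of over 10), for the RNA polymerase I subunits and for members picked, after their values were seen, to show a pattern; up to 2 genes of each related list are named by adjusted p. Alternatives were pseudocounts of 1 and 64, quantile normalization, centring, other filters, eBayes without the trend, the replicate block, mean probe sets, a loess correction for gene length, and leaving out arrays.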

Additional observations from a re-analysis of the deposited data

Results flagged for a closer look

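In 4 of the 106 groups of 4 arrays (53 genes in each strain), 1 array lay far from the other 3, by the gap to the nearest of the others as a share of the group's range of log2 signals; chance gives about 1 in 20 groups. All 4 were CDC34tm replicate 2. GAR1 read 11086 there and 10111 to 10180.3 on the other CDC34tm arrays (share 0.926), LTV1 3875 against 3487 to 3517 (0.92), and EBP2 5305 against 4586 to 4666 (0.881). RPA190 was low on that array, at 5547 against 6204 to 6335 (0.842). CDC34tm replicate 2 was the highest of the 8 arrays for 25 of the 53 members and the lowest for 3. The same count was not made over all tested genes, so it cannot be called particular to the members. Without CDC34tm replicate 2 the calls of LTV1 (limma adjusted p = 0.112) and EBP2 (0.0634) were lost. So were those of IMP4 (0.068) and ENP2 (0.114), which were not flagged here.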

How the results depend on the processing

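Of the 53 members, 5 were called higher and 0 lower with all arrays, with a median log2 fold change of 0.07. The count of higher members was 13 with arrays centred on their median and 14 with the length correction (24.6% and 21.3% of all genes). It was 3 without the trend in eBayes (18.7% of all genes) and 4 after quantile normalization (21.9%). With the replicate block it was 7 (18.0% of all genes), as RPA49 (limma adjusted p = 0.043) and BRX1 (0.0413) joined the 5. It was 5 with pseudocounts of 1 or 64, with no filter, with a stricter filter and with mean probe sets (18.8% to 19.2% of all genes). Under all of these, 0 members were lower. Without WT replicates 1 and 4 the counts were 1 higher and 7 lower (18.0% and 21.0% of all genes), with a median of -0.0719. Without WT replicates 2 and 3 they were 34 and 0 (25.6% and 22.6% of all genes), with a median of 0.247. Leaving out each array in turn gave 1 to 13 higher, 0 to 1 lower and medians of 0.0228 to 0.136. Of all genes, 14.0% to 19.5% were then higher and 15.4% to 19.7% lower. The labels state no pairing by replicate number, and it was not taken as one: deviations of arrays with the same number correlated at 0.04, 0.23, -0.07 and 0.06 across genes, and 3 of 8 arrays correlated best with their own number in the other strain. Among the pairs with the same number, only the cultures numbered 2 correlated above 0.1. Arrays with different numbers correlated at -0.268 to 0.195, and shared handling by number was not tested. Called values that turned from the sign with all arrays were UTP10 (-0.189), HAS1 (-0.187) and NOC3 (-0.177) without WT replicates 1 and 4, and UTP18 (0.167) and NOG2 (0.25) without WT replicates 2 and 3. The cause of these shifts was not tested. Of the 5 called members, 5 kept their call with centring, the block and the length correction, 3 after quantile normalization or without the trend, and 1 without WT replicates 1 and 4. Beyond the members, the heat shock genes called lower were 14 with all arrays and 9 to 16 when 1 array was left out. Of all genes, 19.8% and 15.4% to 19.7% were lower. Other 60S assembly genes called higher were 9 and 5 to 12 (16 with centring), and other 90S and 40S assembly genes 9 and 8 to 18 (17 with centring). Of all genes, 19.0% and 14.0% to 19.5% were higher (24.6% with centring). Without WT replicates 1 and 4, 13 of the 21 heat shock genes were lower (21.0% of all genes). Without WT replicates 2 and 3, 18 of the 21 were lower (22.6% of all genes). Signals were far above background for every member, and whether signal level affects these counts was not tested.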
